A study of Saccharomyces cerevisiae with 48 samples.

Results

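Meiotic S phase in budding yeast (Saccharomyces cerevisiae) cells that lack TOF1 was set against S phase in wild-type cells, as relative DNA copy number along the chromosomes. The cultures were chosen by their labelled genotype. They were tof1∆ ARS+ and tof1∆ ars∆, against wild type ARS+ and wild type ars∆, each sampled at 7 times from 1 to 4 hr, so 28 of the 42 samples with values entered the comparison. ARS marks a replication origin, and the study is known to have removed origins on the left arm of chromosome III in its ars∆ strains. Chromosome III was therefore left out, and the ARS+ and ars∆ cultures of a genotype served as its 2 cultures. All 4 cultures sporulated as synchronized cultures in 2% potassium acetate at 30 °C, and each genotype and ars state is 1 culture sampled over time. A pair of further cultures, DDK OP ARS+ and DDK OP ars∆, overproduces the Cdc7-Dbf4 kinase (DDK). They supplied the order in which regions replicate, so neither tof1∆ nor wild type set it.

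Tof1 travels with the replication fork as part of the fork protection complex, together with Csm3. It keeps the helicase and the polymerases coupled, helps forks to move at full speed, holds them at protein barriers such as the one in the ribosomal DNA, and recruits DDK to forks. In a population of cells, DNA that replicates early rises in copy number relative to the rest, so that origins appear as peaks. Peaks broaden as forks move outward, and the contrast fades once late regions have been copied. The onset, height and breadth of these peaks are thus the readouts of origin use and fork progress that such profiles allow.

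The values are deposited ratios at positions 2.5 kb apart in sacCer2 coordinates, turned here into log2 of the ratio over the median of its sample. They run from 0.605 to 1.45 in tof1∆ and from 0.619 to 1.42 in wild type. Of 4568 listed positions, the 118 on chromosome III were dropped and 4450 on 15 chromosomes were used, grouped into 1143 windows of 10 kb. The depth of sequencing is unknown, so no counting interval can be given. With 2 cultures on each side an exact permutation test cannot go below 0.333, so single values are given per culture with no p-value. Deletion of TOF1 itself was not checked, because no gene annotation of this build was used. Before S phase, at 1 and 1.5 hr, the SD over windows was 0.045 to 0.057 in the 4 cultures, which is the size of the differences between windows with no sign of replication.

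Both tof1∆ cultures entered S phase together, and about when the wild-type ars∆ culture did. Wild type ARS+ was ahead of the other cultures at 2 hr and behind them at 2.5 and 3 hr. Progress was measured as the programme slope, the slope over windows of a sample on the DDK OP replication order, where 0 means no sign of that order. Between 1 and 1.5 hr no culture exceeded 0.018. At 2 hr the slope was 0.12 in tof1∆ ARS+ and 0.20 in tof1∆ ars∆, against 0.43 and 0.052 in wild type ARS+ and ars∆. At 2.5 hr it was 1.04 and 0.88 in tof1∆ ARS+ and ars∆, against 0.31 and 0.93 in wild type ARS+ and ars∆. The 3 hr values were 1.28 and 1.17 in tof1∆ ARS+ and ars∆, against 0.47 and 1.41 in wild type ARS+ and ars∆. The tof1∆ cultures were at most 0.16 apart at any time, and the wild-type cultures up to 0.95.

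The wild-type ARS+ culture stood apart. It had the highest slope of the 4 at 2 hr, the lowest at 2.5 and 3 hr, and lay near the others from 3.5 hr. At that time the slope was 0.91 and 0.95 in tof1∆ ARS+ and ars∆, below 1.02 and 1.24 in wild type ARS+ and ars∆. By 4 hr it was 0.62 and 0.77 in tof1∆, against 0.67 and 0.87 in wild type, so the groups overlapped. The highest slope came at 3 hr in both tof1∆ cultures and in wild type ars∆, and at 3.5 hr in wild type ARS+.

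**Figure D1:**
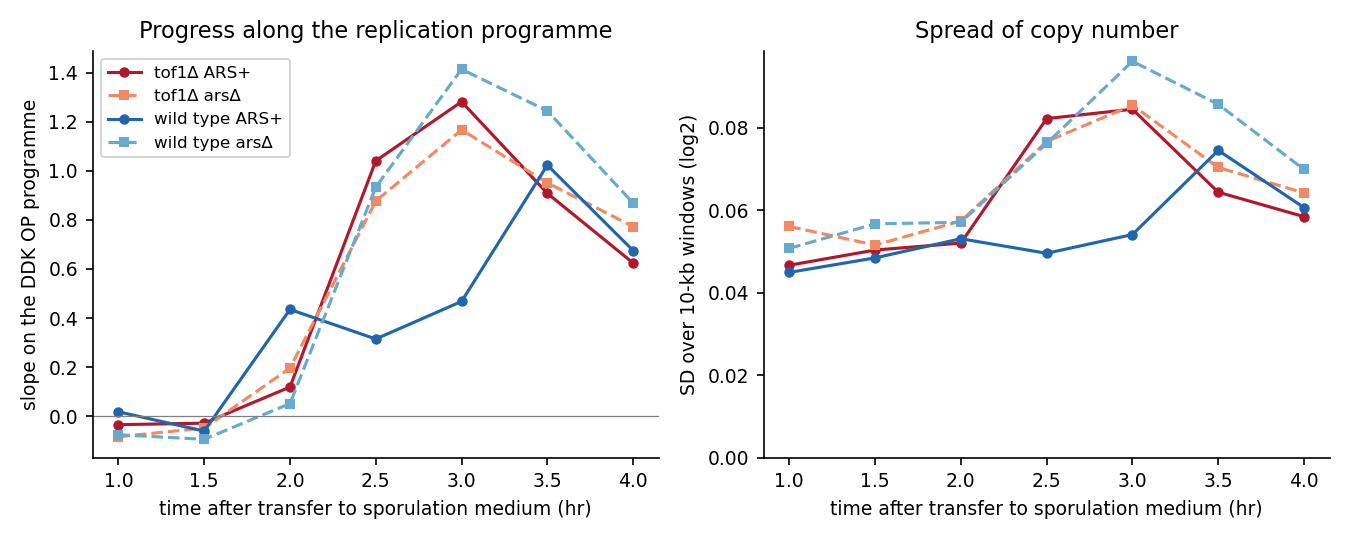
Left, slope of each sample on the DDK OP replication programme, and right, SD over 1143 windows of 10 kb (log2), both by time after transfer to sporulation medium, 1 point per sample. Both tof1∆ cultures and wild type ars∆ climb between 2 and 2.5 hr, and wild type ARS+ reaches its highest values at 3.5 hr.

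The time at which the slope passed 0.5 of its highest value was 2.28 hr in both tof1∆ ARS+ and tof1∆ ars∆. Wild type ARS+ passed it at 3.04 hr and wild type ars∆ at 2.37 hr. In wild type ARS+ the slope was already 0.43 at 2 hr, against its highest value of 1.02. Its 3.04 hr thus does not mark its first rise. The mean difference, tof1∆ minus wild type, was -0.42 hr. It rested on 1 culture, since it was -0.088 hr without wild type ARS+ and -0.76 hr without wild type ars∆. The gap between the 2 wild-type cultures was larger than that between tof1∆ and wild type ars∆, so an earlier onset in tof1∆ was not separable from culture-to-culture spread.

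Likeness between samples did not settle the stage of the cultures. Over the 1143 windows, tof1∆ ARS+ at 2.5 and 3 hr was most alike the 3.5 hr sample of wild type ARS+, with r = 0.53 and 0.63, against 0.32 and 0.41 at equal times. By contrast, tof1∆ ars∆ at 2.5 and 3 hr was most alike wild type ars∆ at those same times, with r = 0.60 and 0.67. Within wild type, ARS+ at 2 hr was most alike ars∆ at 3 hr, with r = 0.48 against 0.22 at equal times. The closest match often fell at the time of the highest slope of the other culture. These coefficients describe windows that share the sample median and are not independent. At 4 hr both tof1∆ cultures were more alike an earlier wild-type sample of the same ars state, at 3.5 hr for ARS+ (r = 0.39) and 3 hr for ars∆ (r = 0.55). The same was seen within genotypes, since tof1∆ ARS+ at 4 hr was most alike tof1∆ ars∆ at 3.5 hr (r = 0.38), and wild type ARS+ at 4 hr most alike wild type ars∆ at 3 hr (r = 0.60).

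The amplitude of the profiles was in the same range in both genotypes. The SD over windows at its highest time was 0.084 in tof1∆ ARS+ and 0.085 in tof1∆ ars∆, against 0.074 and 0.096 in wild type ARS+ and ars∆. The tof1∆ cultures thus lay between the wild-type cultures, and the mean difference was -0.00033 with a spread between cultures of 0.011. After the highest point the slope at 4 hr stood at 0.49 and 0.66 of its highest value in tof1∆ ARS+ and ars∆, against 0.66 and 0.61 in wild type ARS+ and ars∆.

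Early peaks were local maxima of the DDK OP order above its 75th percentile, and 115 of them were found on 15 chromosomes, from 1 to 16 on each. Their median distance to the nearest other peak was 42.5 kb, and 44 had no other within 50 kb. Within 25 kb of a centromere lay 20 of them, or 17.4%, against 6.88% of positions. In the outer 30 kb of chromosomes lay 1, where 6.54% of positions are. A peak had to have listed positions 20 to 25 kb away on both sides, so positions close to an end could not be peaks. The low count there thus says little about replication. For comparison, 110 valleys, the late-replicating minima, were found in the same way below the 25th percentile. Of these, 3 lay in the outer 30 kb.

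The 115 peaks stood out most sharply from their surroundings at 2.5 hr in tof1∆. Contrast is the mean log2 value within 2.5 kb of the peak minus that at 20 to 25 kb on either side. At 2.5 hr it averaged 0.049 in tof1∆ ARS+ and 0.035 in tof1∆ ars∆, against 0.0023 and 0.034 in wild type ARS+ and ars∆. The 3 hr contrast was 0.022 and 0.030 in tof1∆, against 0.012 and 0.023 in wild type. At 3.5 hr the contrast was 0.011 and 0.0048 in tof1∆, against 0.0066 and 0.024 in wild type.

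The mean difference in contrast at 2.5 hr was 0.023, and it was 0.0077 without wild type ARS+. Wild type ars∆ and tof1∆ ars∆ differed by less than the 2 tof1∆ cultures did. From 2.5 to 3.5 hr the contrast dropped in both tof1∆ cultures, while wild type ars∆ changed less and wild type ARS+ had little contrast at any of these times. At 2.5 hr the share of peaks with a contrast above 0 was 72.2% and 69.6% in tof1∆ ARS+ and ars∆, against 49.6% and 71.3% in wild type ARS+ and ars∆.

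**Figure D2:**
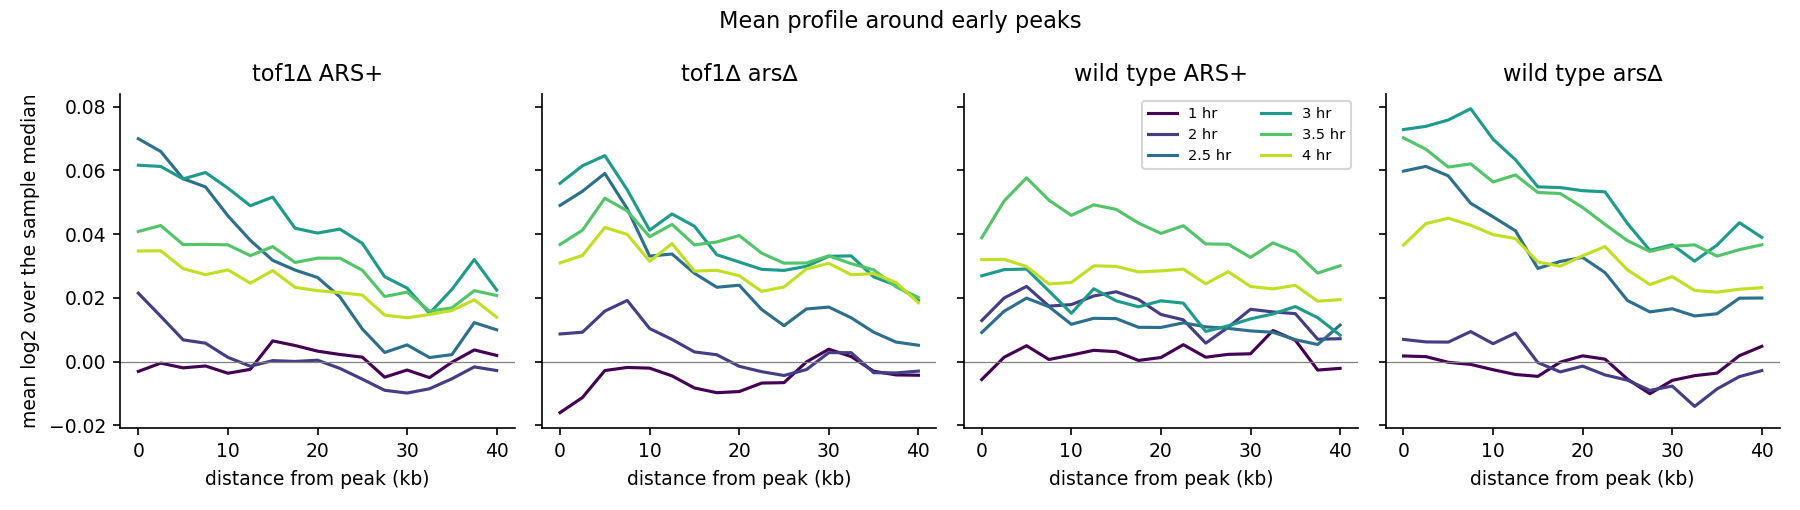
Mean log2 value over the sample median by distance from 115 early peaks (kb, both sides joined), 1 panel per culture and 1 line per time, with 1.5 hr left out. In both tof1∆ cultures the centre is highest at 2.5 or 3 hr and the lines fall away over about 20 kb. In wild type ARS+ the centre is highest at 3.5 hr.

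Peak by peak, 32 of the 115 peaks (27.8%) had a higher contrast in both tof1∆ cultures than in both wild-type cultures at 2.5 hr, and 16 (13.9%) had a lower one. Among all 3994 positions at which a contrast could be formed, 20.4% were above and 19.5% below at that time. At 3.5 hr 14 peaks (12.2%) were above and 21 (18.3%) below, where 15.9% of positions were above and 16.2% below. Without wild type ARS+, 43 peaks (37.4%) were above wild type ars∆ in both tof1∆ cultures at 2.5 hr, where 34.0% of positions were, so the count then lay near its background. At 3.5 hr 28 peaks (24.3%) were above it, where 33.5% of positions were.

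The height of the peaks over the valleys followed the programme slope, as it must in part, since peaks, valleys and slope all rest on the same DDK OP order. At 3 hr peaks exceeded valleys by 0.13 in tof1∆ ARS+ and 0.11 in tof1∆ ars∆, against 0.049 and 0.14 in wild type ARS+ and ars∆. At 3.5 hr the excess was 0.087 and 0.084 in tof1∆, below 0.10 and 0.13 in wild type, and both tof1∆ cultures lay below both wild-type cultures. At 4 hr it was 0.066 and 0.071 in tof1∆, against 0.068 and 0.080 in wild type, and the groups overlapped.

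Valleys were themselves sharper in tof1∆ at 2.5, 3 and 4 hr. Their contrast at 2.5 hr was -0.033 and -0.018 in tof1∆ ARS+ and ars∆, against -0.0047 and -0.0074 in wild type. Their 3 hr contrast was -0.027 and -0.020 in tof1∆, against -0.0034 and -0.014 in wild type. At both times each tof1∆ culture was lower than each wild-type culture, and at 3.5 hr, with -0.015 and -0.014 in tof1∆ against -0.017 and -0.012 in wild type, they overlapped. At 4 hr both tof1∆ cultures, at -0.012 and -0.014, were again lower than wild type, at -0.0048 and -0.0061. In the ars∆ pair the difference, tof1∆ minus wild type, was -0.0060 at 1 hr and -0.012 at 1.5 hr, before S phase. It was -0.011, -0.0067 and -0.0084 at 2.5, 3 and 4 hr, so in that pair it did not arise in S phase.

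The flanks of the mean early peak were steepest at 2.5 hr in both tof1∆ cultures. Their slope from 5 to 20 kb was -0.023 per 10 kb in tof1∆ ARS+ and -0.023 in tof1∆ ars∆, against -0.0055 and -0.018 in wild type ARS+ and ars∆. At 3 hr the slope was -0.013 and -0.020 in tof1∆, against -0.0051 and -0.019 in wild type. By 3.5 hr it was -0.0035 and -0.0082 in tof1∆, against -0.0093 and -0.0086 in wild type. In the ars∆ pair alone the difference was -0.0043 at 2.5 hr, -0.0012 at 3 hr and 0.00039 at 3.5 hr. Before S phase, at 1 hr, it was already -0.0068 in the ars∆ pair and 0.0071 in the ARS+ pair. The later differences in the ars∆ pair were thus no larger than those seen before S phase. The mean difference at 3.5 hr was 0.0031, and it turned to -0.0045 over isolated peaks. At 4 hr the slope was -0.0041 and -0.010 in tof1∆, against 0.0012 and -0.0100 in wild type, so the ars∆ cultures hardly differed.

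The half-width of the mean peak, the distance at which it has lost 0.5 of its height over its level at 30 kb, varied as much within a genotype as between them. At 2.5 hr it was 12.7 and 12.8 kb in tof1∆ ARS+ and ars∆, and 13.1 kb in wild type ars∆. Wild type ARS+ had no half-width at that time, since its value at the central position, 0.00915, lay below that at 30 kb, 0.00965, although it reached 0.0199 at 5 kb. For 3 hr it was 17.4 and 9.35 kb in tof1∆, against 8.21 and 16.2 kb in wild type. At 3.5 hr it was 17.4 and 22.1 kb in tof1∆, against 28.1 and 14.9 kb in wild type, so this measure gave no ordering of the genotypes. With each culture taken at the time of its highest slope, it was 17.4 and 9.35 kb in tof1∆, against 28.1 and 16.2 kb in wild type.

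A measure of likeness along the chromosome that does not need peaks separated the genotypes more clearly, and it was added after the data were examined. With the 1 hr value of each culture subtracted, the covariance of the profile with itself was taken at increasing distance along the chromosome. The distance at which it fell to 0.5 of its value at 5 kb is called the half-distance here. At 2.5 hr this distance was 18.3 kb in tof1∆ ARS+ and 19.6 kb in tof1∆ ars∆, against 78.7 and 32.4 kb in wild type ARS+ and ars∆. The 3 hr distances were 33.0 and 36.7 kb in tof1∆, against 37.0 and 57.4 kb in wild type.

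The distance grew with time in both tof1∆ cultures and stayed below wild type late in S phase. At 3.5 hr it was 42.8 kb in tof1∆ ARS+ and 46.5 kb in tof1∆ ars∆, against 64.5 and 63.3 kb in wild type ARS+ and ars∆. At 4 hr it was 63.8 and 55.3 kb in tof1∆, against 78.1 and 69.5 kb in wild type. At 3.5 hr the mean difference was -19.2 kb, and it lay between -17.4 and -21.1 kb when any of the 4 cultures was left out. At 4 hr it was -14.2 kb, with a range of -9.99 to -18.5 kb.

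At 2.5 and 3 hr these distances depended on wild type ARS+, whose profile had little signal then. Its covariance at 5 kb, multiplied by 10000, was 5.34 and 10.1 at those times, while the other 3 cultures had 31.7 to 64.5. Without it the difference at 2.5 hr was -13.5 kb in place of -36.6 kb. At 3 hr it was -22.6 kb without wild type ARS+ and -2.18 kb without wild type ars∆, in place of -12.4 kb. With the mean of each chromosome subtracted the 3 hr distances were 30.6 and 32.3 kb in tof1∆, against 23.1 and 43.8 kb in wild type, and the groups overlapped.

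The share of covariance left at 40 kb gave the same ordering at 2.5, 3.5 and 4 hr. It is read from the same covariance curve as the half-distance, so it is not a separate line of evidence. It was 0.056 and 0.16 in tof1∆ ARS+ and ars∆ at 2.5 hr, against 0.57 and 0.39 in wild type ARS+ and ars∆. At 3.5 hr it was 0.54 and 0.58 in tof1∆, against 0.65 and 0.67 in wild type. At 4 hr it was 0.57 and 0.58 in tof1∆, against 0.77 and 0.75 in wild type. At 3 hr the groups overlapped, with 0.41 and 0.46 in tof1∆ against 0.37 and 0.62 in wild type. The tof1∆ values were lower than both wild-type values at 2.5, 3.5 and 4 hr under each of the 5 other settings tried at each time, and at 3 hr under 1 of 6.

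The distance changed over time, and whether the cultures differed in it through their stage was not tested. With each culture at the time of its own highest slope, the distance was 33.0 and 36.7 kb in tof1∆ ARS+ and ars∆, against 64.5 and 57.4 kb in wild type ARS+ and ars∆. The DDK OP cultures, given for scale, had 40.5 kb in ARS+ and 72.1 kb in ars∆ at 3.5 hr, and 36.1 and 55.2 kb at 4 hr. The difference between tof1∆ and wild type was thus larger than the gap within either genotype at 3.5 and 4 hr, and smaller than the gap between the 2 DDK OP cultures. Between the 2 cultures of a genotype, the shared part of the profile at 3.5 hr had a half-distance of 51.8 kb in tof1∆ and 67.3 kb in wild type, and at 4 hr 65.3 kb in tof1∆ and 91.4 kb in wild type. What sets this distance was not tested.

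**Figure D3:**
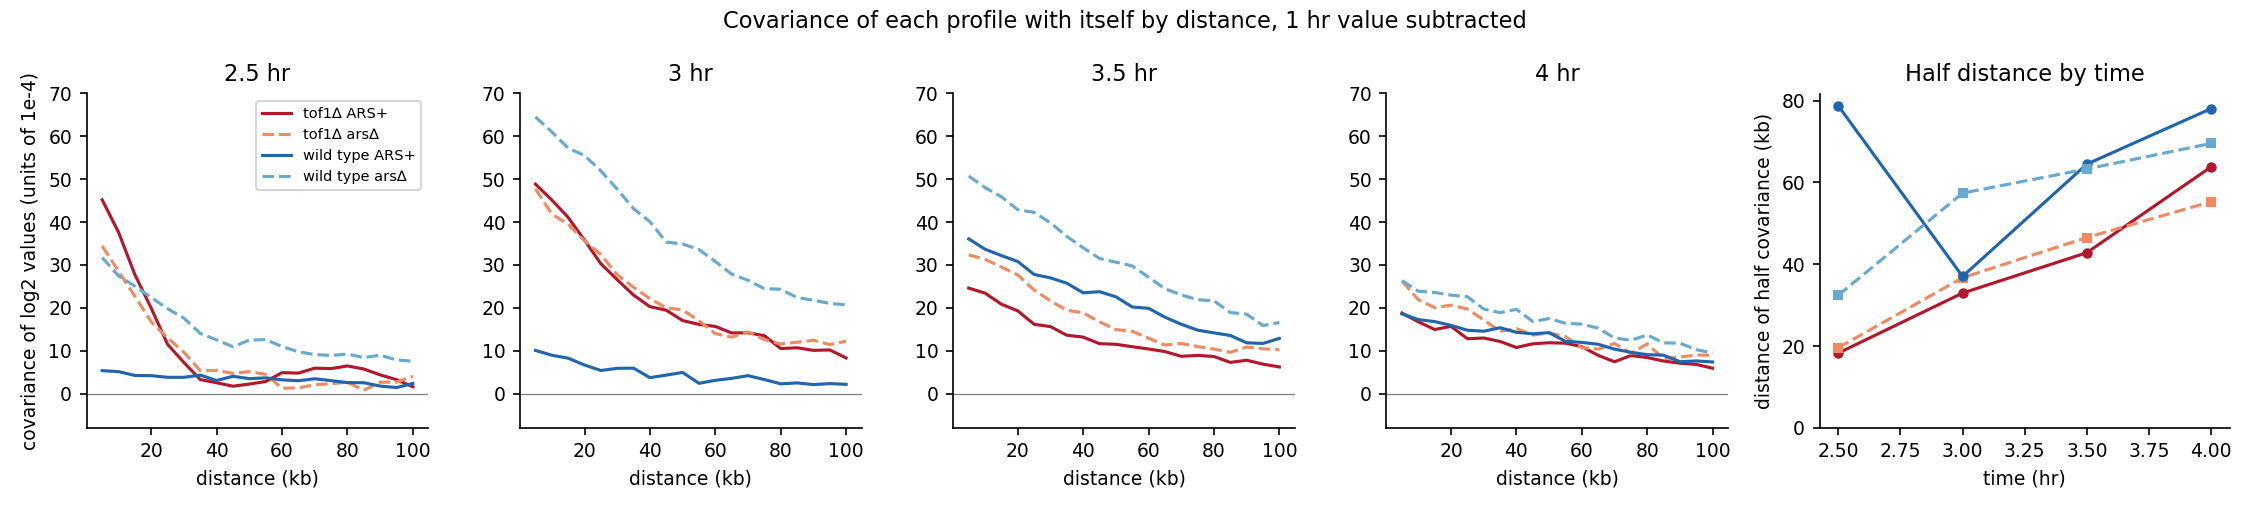
The 4 panels on the left show the covariance of each profile with itself (units of 1e-4, 1 hr value subtracted) by distance along the chromosome from 5 kb, at 2.5, 3, 3.5 and 4 hr, with a line per culture. The right panel shows the distance at which it falls to 0.5 of its 5 kb value by time, where the tof1∆ cultures go from 18.3 and 19.6 kb at 2.5 hr to 63.8 and 55.3 kb at 4 hr and lie below both wild-type cultures at each time.

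Single early peaks show the time course in each culture. At position 560000 of chromosome IV, 1 of the 10 highest peaks of the DDK OP order, the level was 0.16 and 0.17 in tof1∆ ARS+ and ars∆ at 2.5 hr, against -0.0011 and 0.088 in wild type ARS+ and ars∆. At 1 hr it had been -0.012 and -0.013 in tof1∆, against 0.0015 and -0.045 in wild type. At 3.5 hr it was 0.14 and 0.16 in tof1∆, against 0.084 and 0.16 in wild type. This peak was thus higher in both tof1∆ cultures than in both wild-type cultures at 2.5 hr, and the groups met by 3.5 hr.

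The peak at position 150000 of chromosome V, beside the centromere, did not separate the genotypes. At 2.5 hr its level was 0.18 and 0.11 in tof1∆ ARS+ and ars∆, against 0.024 and 0.15 in wild type ARS+ and ars∆. Its 3 hr level was 0.18 and 0.10 in tof1∆, against 0.099 and 0.21 in wild type. The peak at position 345000 of chromosome XV was at 0.12 and 0.12 in tof1∆ at 3 hr, against 0.099 and 0.17 in wild type.

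Another peak went the other way. At position 445000 of chromosome X the 3 hr level was 0.086 and 0.11 in tof1∆ ARS+ and ars∆, against 0.18 and 0.16 in wild type ARS+ and ars∆. At 4 hr it was -0.019 and 0.045 in tof1∆, against 0.16 and 0.11 in wild type. This peak was also lower in both tof1∆ cultures at 3.5 hr, as was the peak at position 417500 of the same chromosome, at 0.048 and 0.14 in tof1∆, against 0.15 and 0.21 in wild type. At 445000 the tof1∆ cultures had been lower at 1 hr too, at -0.036 and -0.017, against 0.065 and 0.042 in wild type.

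Some named peaks differed between cultures already before S phase. At position 652500 of chromosome XII, the highest of the DDK OP order, the level at 1 hr was already 0.18 in tof1∆ ARS+ and -0.31 in tof1∆ ars∆, against -0.091 and 0.11 in wild type ARS+ and ars∆. At 2.5 hr it was 0.37 and -0.24 in tof1∆, against 0.074 and 0.084 in wild type. By 4 hr it was 0.072 and -0.036 in tof1∆, against -0.027 and 0.21 in wild type, so the gap between the 2 tof1∆ cultures was smaller then than at 1 or 2.5 hr. At position 230000 of chromosome II, tof1∆ ars∆ was at -0.19 at 1 hr, against 0.094 in wild type ars∆, and at 0.023 at 3 hr, against 0.24 in wild type ars∆, and the gap was smaller at 4 hr, with 0.0086 in tof1∆ ars∆, against 0.17 in wild type ars∆.

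Limma called no early peak at any time. The contrast of 115 peaks at 7 times gave 805 features, of which limma called 0 at an adjusted p of 0.05 (0% of those tested) and 42 had an unadjusted p under 0.05. A trend in the moderated variance called 2, and leaving out wild type ARS+ called 9, with 8 higher in tof1∆. The lowest p-values were at position 945000 of chromosome XII at 3 hr, with a contrast of -0.015 and 0.37 in tof1∆ ARS+ and ars∆, against -0.18 and -0.18 in wild type (limma difference 0.36, SE 0.075, adjusted p = 0.081). The tof1∆ cultures differed there by more than tof1∆ ARS+ and wild type did.

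Across the genome, the differences between tof1∆ and wild type were close in size to those between cultures of the same genotype. The SD over windows of tof1∆ minus wild type lay between 0.062 and 0.081 over both pairs and the 7 times. It lay between 0.065 and 0.071 for the 2 tof1∆ cultures, and between 0.063 and 0.081 for the 2 wild-type cultures. At 2.5 hr it was 0.081 in the ARS+ pair and 0.069 in the ars∆ pair, against 0.071 within tof1∆ and 0.071 within wild type. At 3.5 hr both pairs, at 0.067, exceeded 0.065 within tof1∆ and 0.064 within wild type. The differences in the ARS+ pair and in the ars∆ pair correlated over windows with r between -0.013 and 0.11 at the 7 times. The 2 pairs share no culture, and the points share the window and the sample medians.

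Limma called 5 of 8001 window and time combinations at an adjusted p of 0.05 (0.0625% of those tested), 1 higher and 4 lower in tof1∆, and 426 had an unadjusted p under 0.05. They lie in 3 windows, and each of these holds 1 or 2 listed positions in place of 4. With the 1 hr value of each culture subtracted, limma called 0 of 6858, with 396 at an unadjusted p under 0.05. Limma called 0 without wild type ARS+, with 365 at an unadjusted p under 0.05, 0 without wild type ars∆, with 475, 1 without tof1∆ ars∆, and 14 without tof1∆ ARS+.

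The window at 10001 to 20000 of chromosome IV, near the left end and with 2 positions, was lower in tof1∆ at 1 and 3 hr. Its 3 hr level was -0.17 and -0.26 in tof1∆ ARS+ and ars∆, against 0.19 and 0.15 in wild type ARS+ and ars∆ (limma difference -0.39, SE 0.045, adjusted p = 0.017). At 1 hr, before S phase, it was already -0.21 and -0.17 in tof1∆, against 0.063 and 0.15 in wild type (limma difference -0.30, SE 0.043, adjusted p = 0.024).

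The window at 480001 to 490000 of chromosome XII has 1 listed position, at the edge of the stretch that holds the ribosomal DNA repeats, where Tof1 is known to hold forks at the barrier. It was -0.18 and -0.34 in tof1∆ ARS+ and ars∆ at 2 hr, against 0.17 and 0.16 in wild type ARS+ and ars∆ (limma difference -0.43, SE 0.059, adjusted p = 0.020). At 1.5 hr it was -0.22 and -0.29 in tof1∆, against 0.049 and 0.068 in wild type (limma difference -0.31, SE 0.042, adjusted p = 0.020). At 1 hr the values were -0.082 and -0.45 in tof1∆, against -0.063 and 0.13 in wild type, so much of the difference was there before the programme slope rose.

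The third window, at 810001 to 820000 of chromosome VII with 1 position, was higher in tof1∆ at 1.5 hr, at 0.31 and 0.21, against -0.11 and -0.080 in wild type (limma difference 0.35, SE 0.044, adjusted p = 0.018). Before S phase, at 1 hr, it was already 0.11 and 0.14 in tof1∆, against 0.052 and -0.072 in wild type. At 3 hr it was -0.014 and 0.13 in tof1∆, against -0.011 and 0.28 in wild type, and the groups overlapped. At 3.5 hr both tof1∆ cultures, at 0.17 and 0.32, were again above wild type, at 0.11 and -0.055.

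The change during S phase was taken from the mean of 1.5 to 2.5 hr to the mean of 3 to 4 hr. It removes whatever a culture carries at all times. Its early part holds 2.5 hr, when the programme slope was already 1.04 and 0.88 in tof1∆ ARS+ and ars∆. The slope was then 0.31 and 0.93 in wild type ARS+ and ars∆. The change thus leaves out part of the S-phase signal, unequally between cultures. With 2.5 to 3.5 hr minus 1 and 1.5 hr instead, limma called 0 of 1143 windows, with 96 at an unadjusted p under 0.05. In 5-kb windows it called 3 of 2255 on the main change. In 10-kb windows it called 0 of 1143 on the main change (0% of those tested), with 58 at an unadjusted p under 0.05. The lowest p was again at 480001 to 490000 of chromosome XII, with a change of 0.093 and 0.14 in tof1∆ ARS+ and ars∆, against -0.12 and 0.0035 in wild type (limma difference 0.17, SE 0.033, adjusted p = 0.16). Next was 20001 to 30000 of chromosome I, with 2 positions, at -0.11 and -0.16 in tof1∆, against 0.040 and -0.091 in wild type (limma difference -0.11, SE 0.026, adjusted p = 0.59). Without wild type ars∆ limma called 5 windows.

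Windows within 25 kb of a centromere, which replicate early in yeast, stood above other windows from 2 hr in all 4 cultures. At 3 hr they exceeded other windows by 0.12 in tof1∆ ARS+ and 0.12 in tof1∆ ars∆, against 0.063 and 0.15 in wild type ARS+ and ars∆. At 3.5 hr the excess was 0.080 and 0.092 in tof1∆, below 0.11 and 0.13 in wild type. At 1 hr it had been 0.0063 and 0.013 in tof1∆, against 0.0077 and 0.0068 in wild type.

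At 3.5 hr the excess at centromeres was lower in both tof1∆ cultures than in both wild-type cultures, by 0.030 in ARS+ and 0.034 in ars∆. At 3.5 hr 54 of the 75 centromeric windows were lower in tof1∆, with a median difference of -0.029, against 580 of 1143 for all windows, with a median of -0.00058. Without wild type ARS+ the 3.5 hr counts were 57 of 75 and 566 of 1143. At 2.5 hr 54 of the 75 were higher in tof1∆, with a median difference of 0.029, and without wild type ARS+ 45 of the 75 were lower, with a median of -0.012. By 4 hr 41 of 75 were lower, and the excess was 0.044 and 0.071 in tof1∆, against 0.071 and 0.078 in wild type.

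**Figure D4:**
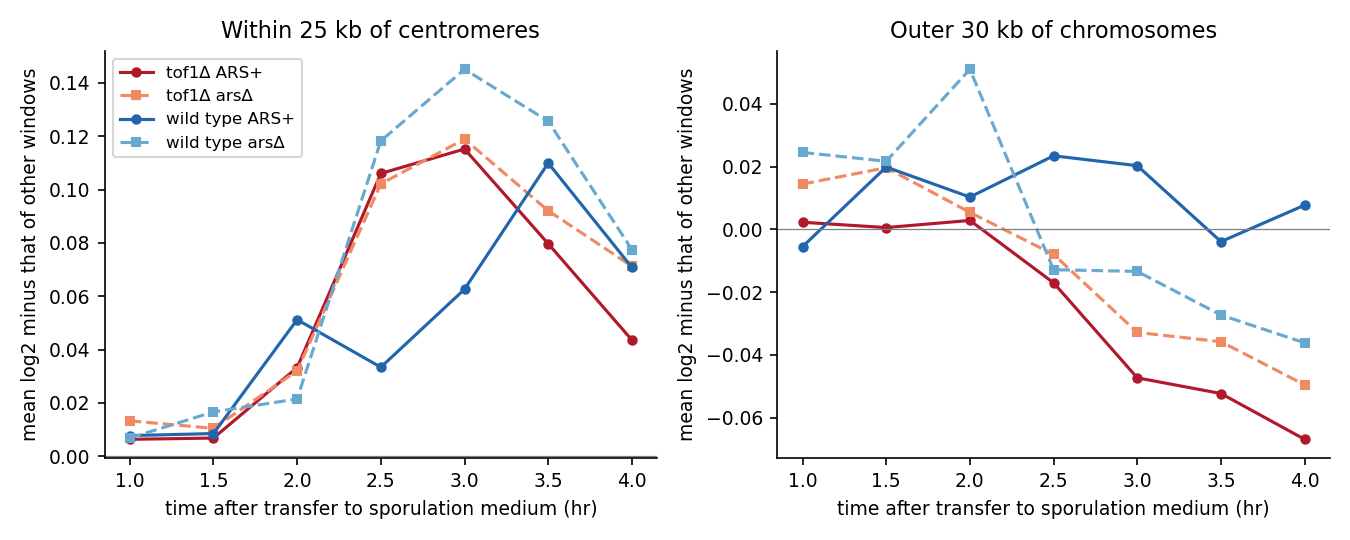
Mean log2 value of windows within 25 kb of centromeres (left, 75 windows) and in the outer 30 kb of chromosomes (right, 81 windows) minus that of all other windows, by time, 1 point per sample. Centromeres stand above 0 in all 4 cultures and lie lower in tof1∆ at 3.5 hr, and the ends lie below 0 from 2.5 hr in both tof1∆ cultures and in wild type ars∆.

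Chromosome ends, which replicate late, lay lower in both tof1∆ cultures from 3 hr. At 4 hr the outer 30 kb lay at -0.067 in tof1∆ ARS+ and -0.050 in tof1∆ ars∆ relative to other windows, against 0.0077 and -0.036 in wild type ARS+ and ars∆. At 3 hr they lay at -0.047 and -0.033 in tof1∆, against 0.020 and -0.013 in wild type. At 4 hr 65 of the 81 end windows were lower in tof1∆, with a median difference of -0.039, against 538 of 1143 for all windows, with a median of 0.0027.

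Most of this difference lay in the ARS+ pair, with or without the starting level removed. At 4 hr it was -0.075 in the ARS+ pair and -0.013 in the ars∆ pair before that removal. With the 1 hr value subtracted the ends at 4 hr were at -0.069 and -0.064 in tof1∆ ARS+ and ars∆, against 0.013 and -0.061 in wild type ARS+ and ars∆. The mean difference at 4 hr was -0.044, and it was -0.022 without wild type ARS+. Without wild type ARS+, 48 of the 81 end windows were lower in tof1∆ at 4 hr, against 566 of 1143 for all windows. The ends of tof1∆ ars∆ and wild type ars∆ changed by nearly the same amount.

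Of whole chromosomes, the small chromosomes I and VI differed most between the genotypes. They hold 20 and 26 windows, where the others hold 42 to 150, so their means rest on the fewest windows. From 1 and 1.5 hr to 3 to 4 hr, chromosome I changed by -0.065 in tof1∆ ARS+ and -0.032 in tof1∆ ars∆, against 0.013 and 0.0017 in wild type ARS+ and ars∆. Chromosome VI, which carries the early origins ARS606 and ARS607, changed by -0.026 and 0.00021 in tof1∆, against 0.024 and 0.043 in wild type. At 1 hr VI had already been higher in tof1∆ in each pair, at 0.081 and 0.13, against 0.041 and 0.10 in wild type. Its 4 hr level was 0.017 and 0.10 in tof1∆, against 0.065 and 0.12 in wild type, and the groups overlapped. In the change of both I and VI each tof1∆ culture lay below each wild-type culture, as it did on 5 of the 15 chromosomes (33.3%). On 6 it lay above, and on 4 the groups overlapped.

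The mean difference was -0.056 for chromosome I and -0.047 for chromosome VI, while the other 13 chromosomes lay between -0.016 and 0.018. Leaving out any of the 4 cultures kept the difference between -0.039 and -0.072 for I and between -0.034 and -0.060 for VI. Without the outer 30 kb it was -0.049 for I and -0.040 for VI. In the DDK OP cultures chromosome I changed by 0.018 in ARS+ and -0.025 in ars∆, and VI by 0.028 and 0.00089, so their ars∆ culture came near tof1∆ ars∆. Chromosome IX, also small, changed by 0.026 and 0.020 in tof1∆, against 0.019 and 0.020 in wild type, a difference of 0.0038.

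**Figure D5:**
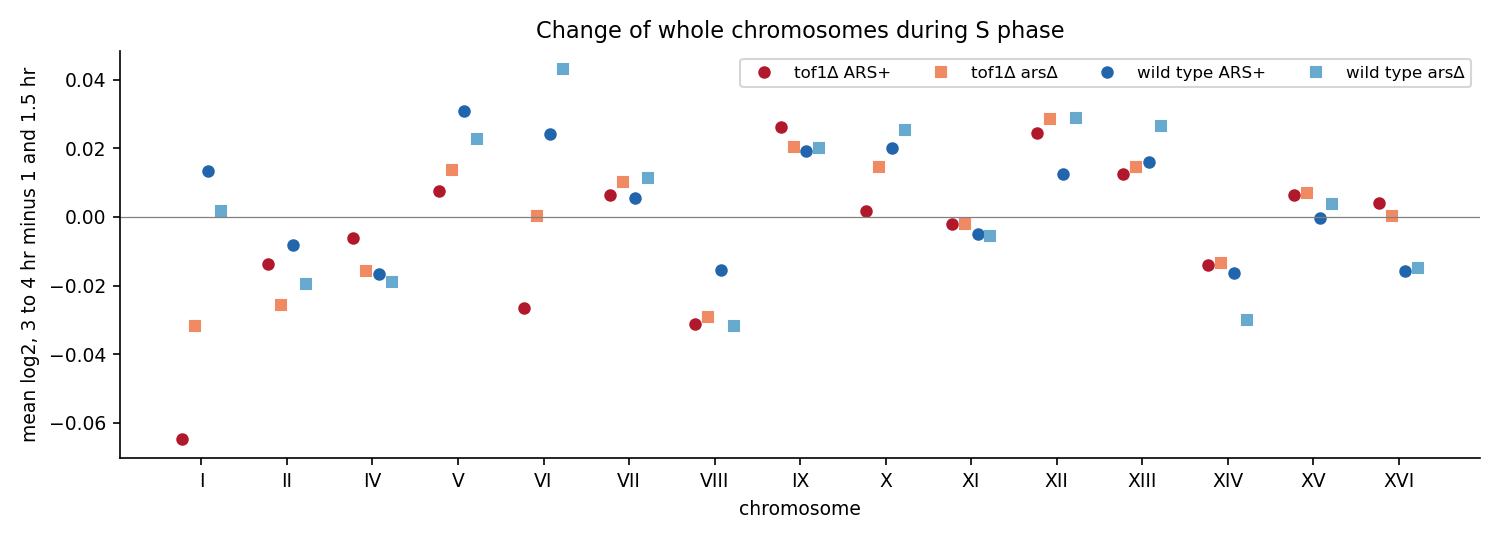
Change of the mean log2 value of each of 15 chromosomes, 3 to 4 hr minus 1 and 1.5 hr, with 1 point per culture and the tof1∆ cultures on the left of each group. The groups do not overlap on 5 chromosomes where tof1∆ is lower and 6 where it is higher. The mean differences are -0.056 on I and -0.047 on VI, and no more than 0.018 in size on the others.

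At 2.5 hr the windows of the early origins ARS416, ARS606 and ARS607 were lowest in wild type ARS+, which had the lowest programme slope then. At 2 hr that culture had the highest slope, yet it was not the highest of the 4 at any of these windows. The window of ARS606 on chromosome VI (160001 to 170000) was at 0.27 in tof1∆ ARS+ and 0.25 in tof1∆ ars∆ at 2.5 hr, against 0.12 and 0.32 in wild type ARS+ and ars∆. At 1 hr it was already at 0.099 and 0.14 in tof1∆, against 0.041 and 0.13 in wild type. The window of ARS416 on chromosome IV (460001 to 470000) was at 0.13 and 0.17 in tof1∆ at 2.5 hr, against 0.017 and 0.15 in wild type. ARS607 (190001 to 200000) was at 0.18 and 0.24 in tof1∆, against 0.091 and 0.25 in wild type. At ARS606 and ARS607 both tof1∆ cultures lay between the 2 wild-type cultures, and at ARS416 tof1∆ ars∆ was the highest of the 4.

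Late origins differed from each other. The window of ARS609 near the right end of chromosome VI (250001 to 260000) was at -0.064 in tof1∆ ARS+ and -0.023 in tof1∆ ars∆ at 4 hr, against 0.038 and 0.092 in wild type ARS+ and ars∆. At 1 hr it had been 0.056 and 0.069 in tof1∆, against 0.036 and 0.070 in wild type. ARS603 on the left arm (60001 to 70000) was at 0.00096 and 0.11 in tof1∆ at 4 hr, against 0.046 and 0.066 in wild type, so the groups overlapped. Off chromosome VI, ARS1412 on XIV (190001 to 200000) stood higher in tof1∆ at 4 hr, at -0.0057 and -0.020, against -0.086 and -0.11 in wild type. At 1 hr ARS1412 had been -0.092 and 0.055 in tof1∆, against -0.032 and -0.030 in wild type. ARS522 on V (540001 to 550000) was at -0.086 and -0.030 in tof1∆ at 4 hr, against -0.014 and -0.065 in wild type.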

How the data were processed

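The authors deposited 1 table of ratios per culture. The submitters' processing notes name BWA and sacCer2. The denominator of the ratios and the version of BWA are not given in the sources used here. The 0 hr samples were not used here. The ratios were divided by the median of their sample over all listed positions and log2 transformed, chromosome III was dropped, and positions were averaged over 10-kb windows (1069 of 1143 hold 4 positions, 74 fewer). The programme is the mean of 2 to 4 hr minus 1 hr in the DDK OP cultures. Peaks were maxima within 15 kb after a running mean over 5 positions. Windows, their change and peak contrasts were tested with limma 3.58.1 (R 4.3.3; lmFit, eBayes) on 6 cultures with terms for background and ars state, and Benjamini-Hochberg adjustment at 0.05. The ARS+ and ars∆ cultures of a background are its replicates, so p-values measure only the spread between 6 single cultures. The procedures were tested on simulated data. Named windows were all called ones, or the 3 lowest p where none passed. Named peaks came from the 10 highest of the programme, at most 2 per chromosome. Centromere and origin positions were placed by rounded textbook position. The cultures, lists and measures were chosen with earlier results of these data known.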

Additional observations from a re-analysis of the deposited data

Results flagged for a closer look

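In several measures the ARS+ pair and the ars∆ pair differed in opposite directions, each by more than the 2 tof1∆ cultures differed from each other. With 1 pair of each kind the difference between pairs was not tested. The programme slope, tof1∆ minus wild type, was -0.32 in the ARS+ pair and 0.14 in the ars∆ pair at 2 hr, and 0.81 and -0.25 at 3 hr. The highest SD over windows differed by 0.010 in ARS+ and -0.011 in ars∆. The excess at centromeres differed by -0.018 and 0.011 at 2 hr, by 0.073 and -0.016 at 2.5 hr, and by 0.053 and -0.026 at 3 hr. The half-width of the mean early peak differed by -10.7 kb in ARS+ and 7.13 kb in ars∆ at 3.5 hr. The contrast at early peaks differed by 0.0042 and -0.0012 at 1.5 hr, before S phase. In the programme slope and the excess at centromeres wild type ARS+ was the culture farthest from the others at 3 hr. The highest SD was lowest in wild type ARS+ and highest in wild type ars∆, with both tof1∆ cultures between them.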

How the results depend on the processing

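All values are tof1∆ minus wild type. Without the term for ars state, which is the replicate block, limma called 6 window and time combinations, 0 changes (53 at an unadjusted p under 0.05) and 0 peaks (39), in place of 5, 0 and 0. With only tof1∆ and wild type in the fit it called 11 combinations, in windows with all 4 positions 2, and with the 1 hr value subtracted 0 (396 at an unadjusted p under 0.05). In 5-kb windows it called 3 changes, and with a trend 2 peaks. With a culture left out the counts ran from 0 to 14 combinations, 0 to 5 changes and 0 to 9 peaks, and the lone culture is then assumed to vary like the others. The 9 peaks came without wild type ARS+, and the 14 combinations without tof1∆ ARS+.

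With peaks from all 6 cultures the contrast was 0.048 at 2.5 hr and 0.0077 at 4 hr. The flank slope was then -0.022 at 2.5 hr and 0.0057 at 3.5 hr, and the 4 hr half-width -6.87 kb in place of 5.25 kb. Those peaks were chosen partly from the tof1∆ and wild-type values that are compared here. At 4 hr the contrast was 0.0088 above the 90th percentile and 0.0085 with the 1 hr value subtracted. With isolated peaks the flank slope was -0.018, -0.012 and -0.0045 at 2.5, 3 and 3.5 hr. The half-width was -8.80 kb at the time of the highest slope, in place of 1.16 kb at 3 hr, and 7.51 kb with a foot at 40 kb, in place of -1.80 kb at 3.5 hr. At 2.5 hr wild type ARS+ had no half-width.

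With the mean of each chromosome subtracted the share of covariance at 40 kb was -0.27 at 2.5 hr and -0.21 at 4 hr, and the half-distance -1.97, -16.7 and -26.4 kb at 3, 3.5 and 4 hr. Without subtraction of the 1 hr value the share was -0.55 at 2.5 hr and the half-distance -13.8 kb at 3.5 hr. At 4 hr a near distance of 10 kb gave -0.16 and -22.2 kb. At 60 kb the share was -0.13 at 3.5 hr and -0.13 at 4 hr. At the time of the highest slope the share was -0.20 and the half-distance -26.1 kb. These measures, and the counts without wild type ARS+, were chosen after seeing the data, and the cause of the changes was not tested.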
